A study of Rattus norvegicus with 9 samples.

Results

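The circadian clock and its PAR bZIP (proline and acidic amino acid-rich basic leucine zipper) output factors were followed through 10 genes in rat liver: Arntl, Clock, Npas2, Per1, Per2, Per3, Nr1d1, Nr1d2, Tef and Dbp. They are 10 of 14377 genes that a probe set named alone, and 19 of 31042 probe sets carried their symbols. The genes were chosen by name, with their measured values in these livers already known, and each was read from the probe set with the highest mean signal over all arrays. The signals that selected the probe sets and the levels of the members are therefore given as a description.

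The arrays measured total RNA from pieces of whole liver of male Sprague-Dawley rats, with 1 array per rat and 3 rats per group. Vehicle rats received vehicle alone, and CCl4 rats received carbon tetrachloride (CCl4), a hepatotoxin, mixed with olive oil by repeated intraperitoneal injection over 8 weeks to produce liver fibrosis. CCl4+Rot rats received the same CCl4 course and intraperitoneal rottlerin at 2.5 mg/kg body weight, begun after the first CCl4 injections. Rottlerin opens BK channels, large-conductance potassium channels gated by calcium and voltage, and the study asked whether it lessened fibrosis. What the vehicle consisted of is not given in the sources used here.

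In the core clock the proteins of Arntl (also named Bmal1) and of either Clock or Npas2 pair up and bind E-boxes, short DNA elements, to switch on the Per, Cry and Nr1d genes as well as Dbp and Tef. Per and Cry proteins then repress that pair, and the Nr1d proteins (REV-ERBs) repress Arntl, Npas2 and Clock through ROR response elements. Dbp, Tef and the related Hlf bind D-boxes and drive daily rhythms of detoxification and metabolic genes in liver. Most of these transcripts rise and fall over each day, the activator genes roughly out of phase with Dbp and the Per genes. The hour at which each liver was taken, the light schedule and the feeding state are not given in the sources used here, so their part in the differences was not tested.

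RefSeq promoter windows of assembly GRCr8 were found for all 10 genes, 12 windows in all, because Clock and Nr1d1 each have a pair of annotated starts. Each window holds 250 bases before a start and 50 after it. Both strands were searched for the E-box CACGTG, the E-prime box CACGTT, the D-box TTATGTAA or TTACGTAA, the core of the ROR element (RORE) TAGGTCA or TGGGTCA, and the cAMP response element TGACGTCA. The windows with a match are shown because they hold the letters of elements that clock proteins are known to bind, 5′ to 3′ on the strand of the gene, with each match in capitals and without the bases after the start.
Tef, chr7:115206577-115206826, plus strand: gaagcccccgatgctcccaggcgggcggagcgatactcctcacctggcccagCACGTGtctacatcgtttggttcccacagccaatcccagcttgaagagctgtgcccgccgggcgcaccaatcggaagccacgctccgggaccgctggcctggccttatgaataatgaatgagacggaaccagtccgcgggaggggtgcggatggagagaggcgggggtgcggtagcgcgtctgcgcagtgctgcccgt
Arntl, chr1:176766078-176766327, plus strand: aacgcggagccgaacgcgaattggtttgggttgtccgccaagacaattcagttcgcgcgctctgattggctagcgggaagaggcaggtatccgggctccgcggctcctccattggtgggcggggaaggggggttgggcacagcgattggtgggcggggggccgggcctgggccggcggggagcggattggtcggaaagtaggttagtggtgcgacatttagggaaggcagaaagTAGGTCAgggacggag
Per2, chr9:99496994-99497243, minus strand: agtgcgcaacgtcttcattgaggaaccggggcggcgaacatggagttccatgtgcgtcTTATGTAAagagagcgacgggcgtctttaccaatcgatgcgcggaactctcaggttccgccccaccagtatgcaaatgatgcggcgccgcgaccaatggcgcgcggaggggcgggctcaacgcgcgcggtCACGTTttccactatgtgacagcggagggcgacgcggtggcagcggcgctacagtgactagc
Nr1d1 upstream start, chr10:84231813-84232062, minus strand: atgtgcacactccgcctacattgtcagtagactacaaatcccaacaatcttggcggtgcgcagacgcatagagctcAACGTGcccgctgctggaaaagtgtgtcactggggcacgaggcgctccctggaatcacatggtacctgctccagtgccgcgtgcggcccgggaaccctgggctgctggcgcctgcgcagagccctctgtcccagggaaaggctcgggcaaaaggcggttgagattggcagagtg
Nr1d1 downstream start, chr10:84229455-84229704, minus strand: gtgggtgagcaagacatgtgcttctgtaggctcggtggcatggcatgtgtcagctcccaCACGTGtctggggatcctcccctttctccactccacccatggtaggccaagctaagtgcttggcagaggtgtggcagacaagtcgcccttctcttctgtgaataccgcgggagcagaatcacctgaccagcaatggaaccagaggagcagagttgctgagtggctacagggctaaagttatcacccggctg

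Matches were present in windows of 4 of the 10 genes. Tef had an E-box beginning 198 bases before its start, and the downstream window of Nr1d1 had one at 191 bases. Per2 had an E-prime box at 62 bases and a D-box at 192 bases, and the upstream window of Nr1d1 had an E-prime box at 174 bases that reads on the opposite strand. Arntl had a RORE core 16 bases before its start. Of 33469 promoter windows in the same table, 6.42% held the E-box, 4.83% the E-prime box, 1.01% the D-box, 6.6% the RORE core and 1.83% the cAMP response element. A match is a description of letters, and a window without one says only that the letters are not in these bases.

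Signals are given as the authors' log2 values, on a scale on which a difference of 1 is a doubling within 1 probe set. Levels of different probe sets cannot be set against each other. The probe sets of Clock, Nr1d1, Nr1d2 and Dbp were called present on every array, that is, detected above their mismatch controls. Those of Tef and Per2 were called present on 8 arrays, Npas2 and Per3 on 6, Arntl on 4 and Per1 on 1. Tests were those of limma across all 31042 probe sets, and a call needed both an adjusted p (Benjamini-Hochberg) under 0.05 and a difference of 1.5-fold or more.

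The array of CCl4 replicate 3 stood apart from the others. It had 12714 probe sets called present against 15550 to 16849 on the other 8 arrays, and a median log2 signal of 7.81 against 6.79 to 7.01. Tef, Per1, Per2 and Per3 were called absent on it, and the mean log2 signal of 5 hepatocyte markers, all detected on every array, was 14.26 there and 14.72 to 14.92 elsewhere. Differences from or to the CCl4 group, as read by the brightest probe set of each gene, are therefore given with and without this rat. The 6 stellate cell and myofibroblast markers averaged 8.29 to 8.96 in vehicle, 9.51 to 10.27 in CCl4 and 10.18 to 10.37 in CCl4+Rot livers, and 3 mast cell markers, with Kit absent on all arrays, averaged 5.41 to 5.97, 6.58 to 7.56 and 6.96 to 7.35. The part of these cells in the clock gene values was not tested. In whole liver, fewer cells of a type and less RNA per cell cannot be told apart.

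In CCl4 livers the 3 activator genes lay higher than in vehicle livers, and Dbp, Tef, Per2, Per3 and Nr1d2 lay lower. The rats of these groups did not overlap for any of these 8 genes, though Clock overlapped once arrays were centred on their medians. Of all probe sets, 11.1% were higher and 7.14% lower without overlap. In CCl4+Rot livers most of the genes lay between the other groups or near vehicle. No member was called in any comparison.

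**Figure D1:**
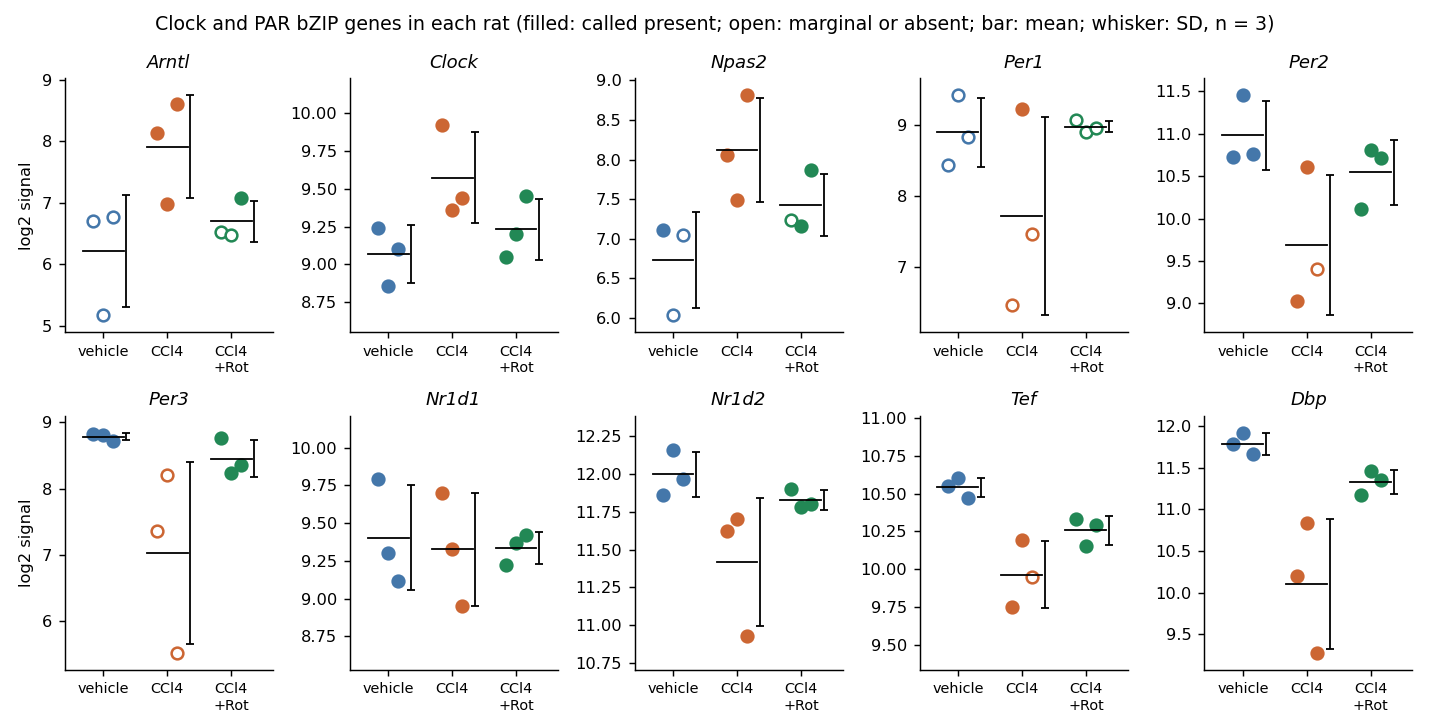
Log2 signal of the 10 genes in each rat, with 1 panel per gene, a point per rat (filled where the probe set was called present, open where marginal or absent), a bar at the group mean and a whisker of 1 SD (n = 3). Dbp formed 3 groups that did not overlap, from 11.66 to 11.92 in vehicle, 11.17 to 11.46 in CCl4+Rot and 9.28 to 10.84 in CCl4 livers.

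Arntl, the activator without which the loop does not run, gave log2 signals of 6.71, 5.17 and 6.76 in vehicle replicates 3, 4 and 5, of 8.14, 6.98 and 8.60 in CCl4 replicates 1, 2 and 3, and of 6.53, 6.48 and 7.08 in CCl4+Rot replicates 4, 5 and 6. All CCl4 rats lay above all vehicle rats, and it was called present in 3 of 3 CCl4, 1 of 3 CCl4+Rot and 0 of 3 vehicle livers. The mean signal of Arntl was 3.22-fold higher in CCl4 than in vehicle livers, a log2 difference of 1.69 ± 0.55 (SE, n = 3) with a limma adjusted p of 0.307. Because Arntl was not detected in vehicle livers, this fold rests on undetected signals there. CCl4+Rot differed from CCl4 livers by -1.20 ± 0.55 (adjusted p = 0.752), and CCl4 replicate 2 at 6.98 lay below CCl4+Rot replicate 6. Without CCl4 replicate 3 these log2 differences were 1.34 and -0.86. CCl4+Rot differed from vehicle by 0.48 ± 0.55 (adjusted p = 0.92), and by -0.04 without vehicle replicate 4.

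Npas2, which can take the place of Clock in the activator pair, gave 7.11, 6.03 and 7.05 in vehicle, 8.06, 7.49 and 8.81 in CCl4, and 7.23, 7.16 and 7.87 in CCl4+Rot livers. Vehicle lay lowest without overlap with either other group, while CCl4+Rot replicate 6 lay inside the CCl4 range. The log2 difference was 1.39 ± 0.432 for CCl4 against vehicle (adjusted p = 0.294), -0.70 for CCl4+Rot against CCl4 (adjusted p = 0.765) and 0.69 for CCl4+Rot against vehicle (adjusted p = 0.79). Without CCl4 replicate 3 the first was 1.04 and the second -0.35, and without vehicle replicate 4, the lowest, CCl4+Rot differed from vehicle by 0.34. In each of the 9 rats Npas2 and Arntl deviated from their means over all arrays in the same direction. Such deviations carry the group differences of both genes.

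Clock, the usual partner of Arntl, gave 9.24, 8.86 and 9.10 in vehicle, 9.92, 9.36 and 9.44 in CCl4, and 9.05, 9.20 and 9.45 in CCl4+Rot livers. CCl4 and vehicle rats did not overlap, by a margin of CCl4 replicate 2 at 9.36 over vehicle replicate 3 at 9.24, and CCl4+Rot overlapped both. The log2 difference of CCl4 from vehicle was 0.50 ± 0.218 (adjusted p = 0.406), or 0.57 without CCl4 replicate 3. Another Clock probe set, present on all arrays, differed by 0.30 ± 0.259 in the same comparison, and 2 further ones were called absent on all arrays. The mean of all Clock probe sets, the absent ones included, had the opposite sign, at -0.15.

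Among the Per genes, whose products close the negative feedback, Per3 gave 8.83, 8.80 and 8.72 in vehicle livers. It gave 7.36, 8.21 and 5.53 in CCl4 and 8.76, 8.24 and 8.36 in CCl4+Rot livers. It was called present in 3 of 3 vehicle and 3 of 3 CCl4+Rot livers and absent in 3 of 3 CCl4 livers. The CCl4 rats overlapped with neither other group, though CCl4 replicate 2 at 8.21 lay just under CCl4+Rot replicate 5 at 8.24. The mean signal of Per3 was 3.37-fold lower in CCl4 than in vehicle livers (log2 difference -1.75 ± 0.602, adjusted p = 0.326). It was 2.68-fold higher in CCl4+Rot than in CCl4 livers (1.42 ± 0.602, adjusted p = 0.75). Both folds rest on undetected signals in the CCl4 livers. Without CCl4 replicate 3, which held the lowest value, the log2 differences were -1 and 0.67. A dimmer Per3 probe set, called present on 1 array, differed by -0.13 between CCl4 and vehicle.

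Per2 gave 10.73, 11.45 and 10.76 in vehicle, 9.03, 10.61 and 9.41 in CCl4, and 10.11, 10.81 and 10.71 in CCl4+Rot livers. CCl4 replicate 2 lay close under the vehicle range and inside that of CCl4+Rot, and the other CCl4 rats lay below every other liver. The log2 difference was -1.30 ± 0.439 for CCl4 against vehicle (adjusted p = 0.321), 0.86 for CCl4+Rot against CCl4 (adjusted p = 0.761) and -0.44 for CCl4+Rot against vehicle (adjusted p = 0.898, and -0.20 without vehicle replicate 4). Without CCl4 replicate 3 the first was -1.16 and the second 0.72. The other Per2 probe set was absent on all arrays.

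Per1 was called present only in CCl4 replicate 2, so no fold is given. Its signals were 8.44, 9.41 and 8.83 in vehicle, 6.47, 9.22 and 7.47 in CCl4, and 9.06, 8.90 and 8.96 in CCl4+Rot livers. The low readings were those of CCl4 replicates 1 and 3, as for Per2, and CCl4 replicate 2 lay with the vehicle rats.

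Nr1d1 and Nr1d2, the paired repressors of Arntl, differed in pattern. Nr1d1 gave 9.79, 9.30 and 9.12 in vehicle, 9.70, 9.33 and 8.95 in CCl4, and 9.22, 9.37 and 9.42 in CCl4+Rot livers, and all groups overlapped. Its log2 difference of CCl4 from vehicle was -0.08 ± 0.256 (adjusted p = 0.919) and became 0.11 without CCl4 replicate 3, and CCl4+Rot differed from CCl4 by 0.01, or -0.18 without that rat. Nr1d2 gave 11.86, 12.16 and 11.97 in vehicle, 11.62, 11.70 and 10.93 in CCl4, and 11.90, 11.78 and 11.80 in CCl4+Rot livers. The CCl4 rats lay below every other liver, though by a small margin for replicates 1 and 2, and the log2 difference from vehicle was -0.58 ± 0.231 (adjusted p = 0.374), or -0.34 without CCl4 replicate 3. CCl4+Rot livers lay 0.41 above CCl4 livers, or 0.17 without that rat. A second Nr1d2 probe set, present on all arrays, gave -0.62 ± 0.202 between CCl4 and vehicle, and the remaining probe set gave -0.09 ± 0.275.

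Of the PAR bZIP factors, Dbp gave 11.78, 11.92 and 11.66 in vehicle, 10.20, 10.84 and 9.28 in CCl4, and 11.17, 11.46 and 11.35 in CCl4+Rot livers. Dbp was detected in every liver. By brightest probe sets it was the only member whose 3 groups were separate from each other, with vehicle highest, CCl4+Rot next and CCl4 lowest. CCl4 differed from vehicle by -1.68 ± 0.364 (adjusted p = 0.218), or -1.27 without CCl4 replicate 3. With a robust limma fit, in which the prior spread follows the mean signal, the adjusted p of this difference was 0.0211. It was the single call among the brightest probe sets of the members, where 1.12% of all probe sets were called. CCl4+Rot differed from CCl4 by 1.22 ± 0.364 (adjusted p = 0.71), or 0.81 without that rat, and from vehicle by -0.46 ± 0.364 (adjusted p = 0.853).

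Tef gave 10.55, 10.60 and 10.47 in vehicle, 9.75, 10.19 and 9.95 in CCl4, and 10.33, 10.15 and 10.29 in CCl4+Rot livers. Vehicle lay above both other groups without overlap, and CCl4 replicate 2 lay just above CCl4+Rot replicate 5. The log2 difference was -0.58 ± 0.169 for CCl4 against vehicle (adjusted p = 0.276), 0.29 for CCl4+Rot against CCl4 (adjusted p = 0.765) and -0.28 for CCl4+Rot against vehicle (adjusted p = 0.768). The first was -0.57 and the second 0.29 without CCl4 replicate 3.

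A second Tef probe set, dimmer on average but present on all arrays, separated the groups more widely. The array annotation gives it no chromosome, and places the other Tef probe sets on chromosome 7. It gave 9.67, 9.78 and 9.93 in vehicle, 8.61, 8.04 and 7.99 in CCl4, and 9.03, 8.94 and 8.76 in CCl4+Rot livers. The 3 groups did not overlap, and the order was that of Dbp. CCl4 differed from vehicle by -1.58 ± 0.213, which ranked 18 of 31042 probe sets by p in that comparison (limma adjusted p = 0.156, robust fit 0.00401), and by -1.47 without CCl4 replicate 3. The robust fit thus called this dimmer probe set as well as that of Dbp. The remaining Tef probe set gave -0.29 ± 0.294, so the Tef probe sets disagreed in size but not in direction in that comparison.

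**Figure D2:**
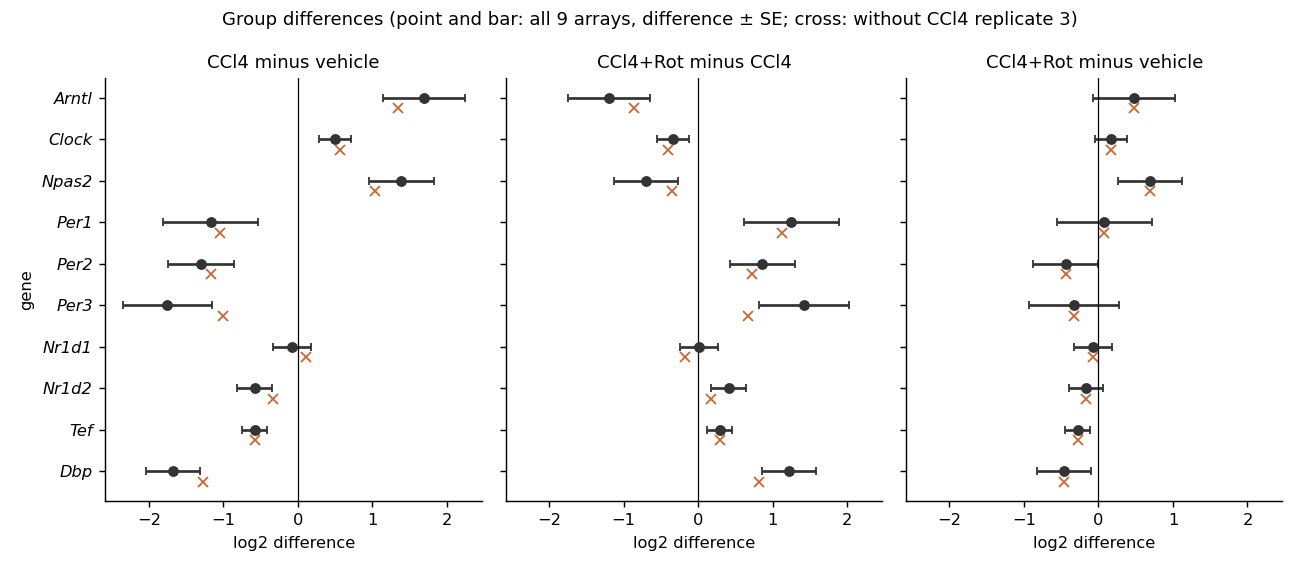
Log2 difference between groups for each gene (point with a bar of 1 SE, all 9 arrays, limma) and the same difference without CCl4 replicate 3 (cross), in 1 panel per comparison. Leaving out that rat moved Per3 from -1.75 to -1 and Dbp from -1.68 to -1.27 in CCl4 against vehicle, and Nr1d1 crossed 0.

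Counted together, 7 members lay lower and 3 higher in CCl4 than in vehicle livers, with a median log2 difference of -0.58 beside 0.18 over all probe sets, and -0.45 beside 0.01 without CCl4 replicate 3. By limma 0 of 10 were called, where 0% of all probe sets were, and 7 had an unadjusted p below 0.05, where 12.4% of all probe sets did. The groups did not overlap for 5 members that were lower and 3 that were higher, where 7.14% and 11.1% of all probe sets were. The members were brought together with these values known, so the counts describe them and test nothing. Per1, called present on 1 array, is among the 7 that lay lower.

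Between CCl4+Rot and CCl4 livers 7 members lay higher and 3 lower, with a median of 0.35 beside -0.12 over all probe sets, and 0.23 beside 0.01 without CCl4 replicate 3. By limma 0 of 10 were called, where 0.00322% of all probe sets were, and Dbp and Per3 had an unadjusted p below 0.05, where 6.63% of all probe sets did. The groups did not overlap for 3 members, Dbp, Per3 and Nr1d2, all higher, where 4.73% of probe sets were higher and 6.88% lower, and Nr1d2 overlapped after median centring. Without CCl4 replicate 2, the CCl4 rat nearest to the other groups, 8 members did not overlap, where 23.6% of all probe sets did not. The count stayed at 3 without CCl4 replicate 1 or 3, where 27.2% and 22.8% did not. It was 4, 4 and 6 without CCl4+Rot replicates 4, 5 and 6, where 20.1%, 19.0% and 18.3% of all probe sets did not overlap. Leaving out a rat can only add members without overlap, and these counts were varied after seeing the data.

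Between CCl4+Rot and vehicle livers 6 members lay lower and 4 higher, with a median of -0.12 beside 0.01. By limma 0 of 10 were called, where 0.0258% of all probe sets were, and 0 had an unadjusted p below 0.05, where 8.31% did. Tef and Dbp lay lower and Npas2 higher without overlap, where 9.15% and 11.9% of probe sets did, and Npas2 overlapped after quantile normalization or median centring. Each group enters a pair of comparisons, so the differences share arrays and a change of sign between them is not independent.

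The activators and the other 7 genes had mean deviations of opposite sign in 7 of the 9 rats, and of the same sign in CCl4 replicate 2 and CCl4+Rot replicate 6, where both were positive. The 3 activators were all under their means over 9 arrays in vehicle replicates 3, 4 and 5 and in CCl4+Rot replicates 4 and 5, and all above them in the 3 CCl4 rats and in CCl4+Rot replicate 6. Of the other 7 genes, 6 were above their means in each vehicle rat, 1, 3 and 0 in CCl4 replicates 1, 2 and 3, and 5, 6 and 7 in CCl4+Rot replicates 4, 5 and 6. Arntl and Dbp deviated in opposite directions in 8 of the 9 rats, the exception being CCl4+Rot replicate 6, in which Arntl lay 0.14 and Dbp 0.28 above its mean. Deviations from means over all 9 arrays carry the group differences already given, so these counts restate them by rat and test nothing.

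**Figure D3:**
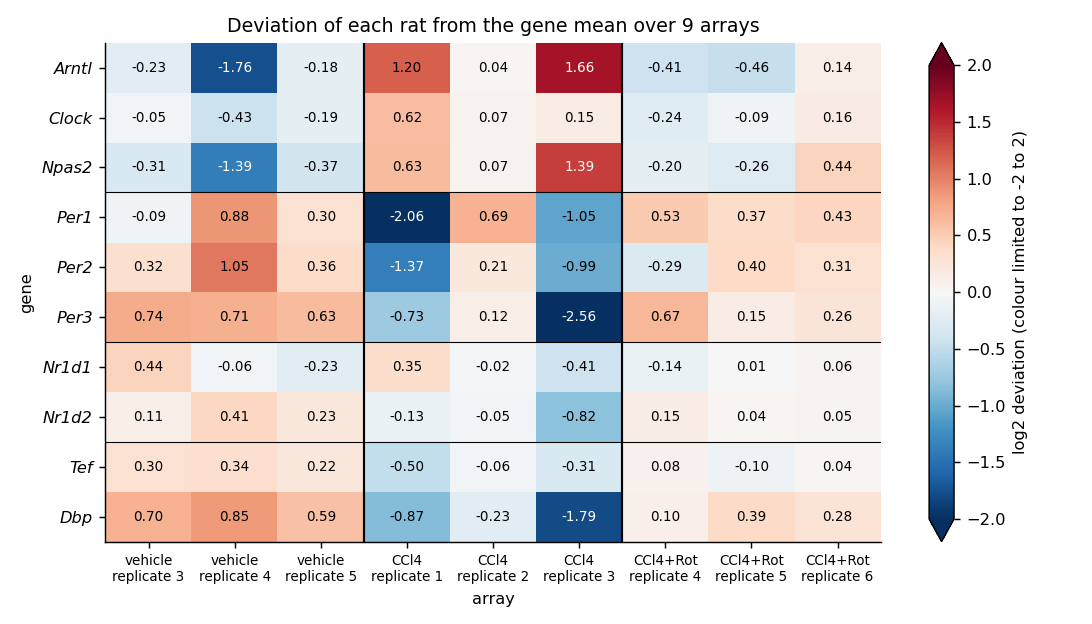
Deviation of each rat from the mean of the gene over 9 arrays (log2, colour and printed value), with genes in rows by role and rats in columns by group. CCl4 replicates 1 and 3 carried wide opposite deviations, such as 1.66 for Arntl and -1.79 for Dbp in replicate 3, and CCl4 replicate 2 stayed within 0.69 of every mean.

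The range over 3 rats was widest in the CCl4 group for each of the 10 members. The same count was not made over all probe sets, and this group holds the array that stood apart. Wide CCl4 ranges are therefore not shown to be particular to these genes. Without CCl4 replicate 3 the remaining CCl4 rats still spanned the widest range for 6 of them, Clock, Per1, Per2, Per3, Tef and Dbp, but not for Arntl, Npas2, Nr1d1 and Nr1d2. Dbp spanned 1.56 log2 units over the 3 CCl4 rats (0.64 without replicate 3) against 0.26 in vehicle and 0.29 in CCl4+Rot livers. Per3 spanned 2.68 (0.85 without replicate 3) against 0.11 and 0.52, and Per1 spanned 2.75 against 0.97 and 0.16. Per1 was called present on 1 array, so its ranges are those of mostly undetected signals. These signals also enter the count of 6 and the means of the other 7 genes. Arntl spanned 1.62 in CCl4 livers (1.16 without replicate 3), 1.59 in vehicle livers, where replicate 4 alone was low at 5.17, and 0.60 in CCl4+Rot livers. The mean deviation of the activators was 0.82, 0.06 and 1.07 in CCl4 replicates 1, 2 and 3, and that of the other 7 genes was -0.76, 0.09 and -1.13. CCl4 replicate 1 lay on the same side as replicate 3 in both arms, and CCl4 replicate 2 did not share these deviations. The part of the array of CCl4 replicate 3 in the wide ranges was not tested.

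**Figure D4:**
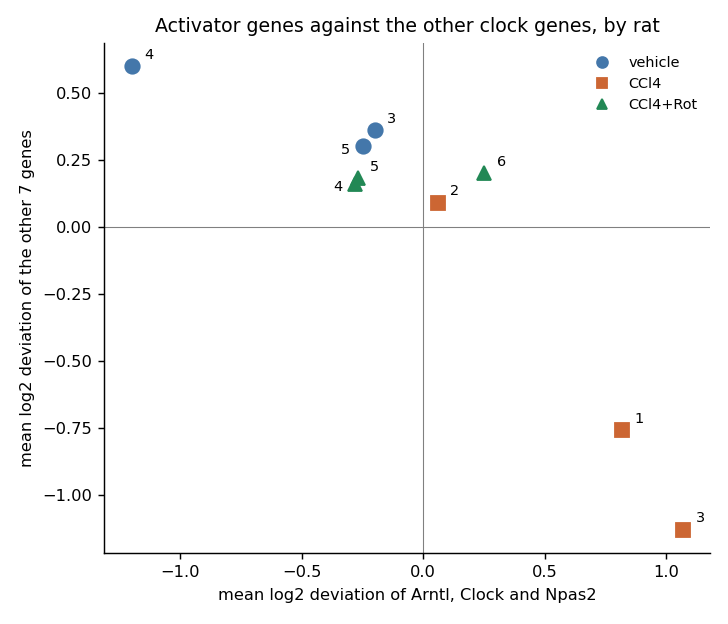
Mean log2 deviation of Arntl, Clock and Npas2 (horizontal) against that of the other 7 genes (vertical), with 1 point per rat, shape and colour for the group and the replicate number beside it. Vehicle replicate 4 sits at -1.20 and 0.60, CCl4 replicates 1 and 3 sit at the opposite corner, and the other 6 rats lie between them.

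Of 17 other clock genes listed, 14 had a probe set of their own, and by limma 0 of these were called in any comparison. In CCl4 against vehicle livers 4 of 14 had an unadjusted p below 0.05, where 12.4% of all probe sets did, and the median log2 difference was 0.09 beside 0.18 over all probe sets, or -0.02 beside 0.01 without CCl4 replicate 3. Cry1, which represses the activator pair together with the Per proteins, gave 8.89, 9.47 and 9.30 in vehicle, 7.88, 8.25 and 8.25 in CCl4, and 7.98, 8.99 and 8.16 in CCl4+Rot livers. CCl4 lay below vehicle without overlap (-1.09 ± 0.304, adjusted p = 0.259, and -1.15 without CCl4 replicate 3), and CCl4+Rot replicate 5 lay inside the vehicle range while the others lay with CCl4 (-0.84 from vehicle, adjusted p = 0.499). Cry2 gave 9.51, 9.45 and 9.08 in vehicle, 8.75, 8.83 and 8.89 in CCl4, and 9.26, 9.24 and 9.22 in CCl4+Rot livers, with CCl4 below every other liver. Its difference was -0.53 ± 0.167 for CCl4 against vehicle (adjusted p = 0.3) and 0.42 ± 0.167 for CCl4+Rot against CCl4 (adjusted p = 0.749), or -0.56 and 0.45 without CCl4 replicate 3.

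Hlf, the PAR bZIP relative of Dbp and Tef, which the array lists under a provisional symbol, gave 10.55, 11.02 and 10.80 in vehicle, 9.76, 10 and 10.32 in CCl4, and 10.21, 10.48 and 9.93 in CCl4+Rot livers. Both CCl4-treated groups lay below vehicle without overlap, by -0.77 ± 0.234 for CCl4 (adjusted p = 0.287, and -0.91 without CCl4 replicate 3) and -0.58 ± 0.234 for CCl4+Rot (adjusted p = 0.56), and they overlapped each other. Another Hlf probe set, present on all arrays, differed by -1.05 ± 0.198 between CCl4 and vehicle, also without overlap. A dimmer one, present on all arrays, differed by -0.67 ± 0.302, and both CCl4-treated groups overlapped vehicle. The remaining one was called present on 1 array. Rorb and the brightest probe set of Csnk1e, which the naming rule also selected, were called absent on all arrays. A dimmer Csnk1e probe set, present on all arrays, differed by 0.85 ± 0.337 between CCl4 and vehicle livers (adjusted p = 0.371), or 0.53 without CCl4 replicate 3. Rorb was the fourth of the genes with an unadjusted p below 0.05 in CCl4 against vehicle. Nfil3, the repressor that competes with PAR bZIP factors for D-boxes, differed by 0.05 ± 0.31 between CCl4 and vehicle livers, or 0.03 without CCl4 replicate 3.

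Of 15 liver genes listed as outputs of the clock, 14 were measured and by limma 0 were called. In CCl4 against vehicle livers 9 lay lower and 5 higher, 5 of 14 had an unadjusted p below 0.05, where 12.4% of all probe sets did, and the median was -0.24 beside 0.18 over all probe sets, or -0.10 beside 0.01 without CCl4 replicate 3. Usp2, a deubiquitinase with a strong daily rhythm in liver, gave 9.65, 10.54 and 10.27 in vehicle, 8.4, 9.49 and 8.12 in CCl4, and 9.52, 10.16 and 9.69 in CCl4+Rot livers. CCl4 lay below both other groups without overlap, by -1.48 ± 0.407 from vehicle (adjusted p = 0.254, and -1.20 without CCl4 replicate 3) and with CCl4+Rot 1.12 above CCl4 (adjusted p = 0.736, and 0.84 without that rat). Within the CCl4 group replicate 2 was the highest for Usp2, as it was for Dbp, Per2 and Per3.

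Nampt, the rate-limiting enzyme of NAD salvage, gave 11.94, 11.94 and 12.30 in vehicle, 11.34, 11.01 and 11.31 in CCl4, and 11.68, 12.03 and 11.22 in CCl4+Rot livers. CCl4 lay below vehicle without overlap (-0.84 ± 0.245, adjusted p = 0.274, and -0.89 without CCl4 replicate 3), and CCl4+Rot overlapped both. Cyp7a1, the rate-limiting enzyme of bile acid synthesis, lay the other way, at 12.71, 11.96 and 12.20 in vehicle, 13.00, 13.57 and 12.99 in CCl4, and 12.86, 12.96 and 13.54 in CCl4+Rot livers. Both CCl4-treated groups lay above vehicle without overlap, by 0.90 ± 0.295 for CCl4 (adjusted p = 0.309, and 1.0 without CCl4 replicate 3) and 0.83 ± 0.295 for CCl4+Rot (adjusted p = 0.495).

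**Figure D5:**
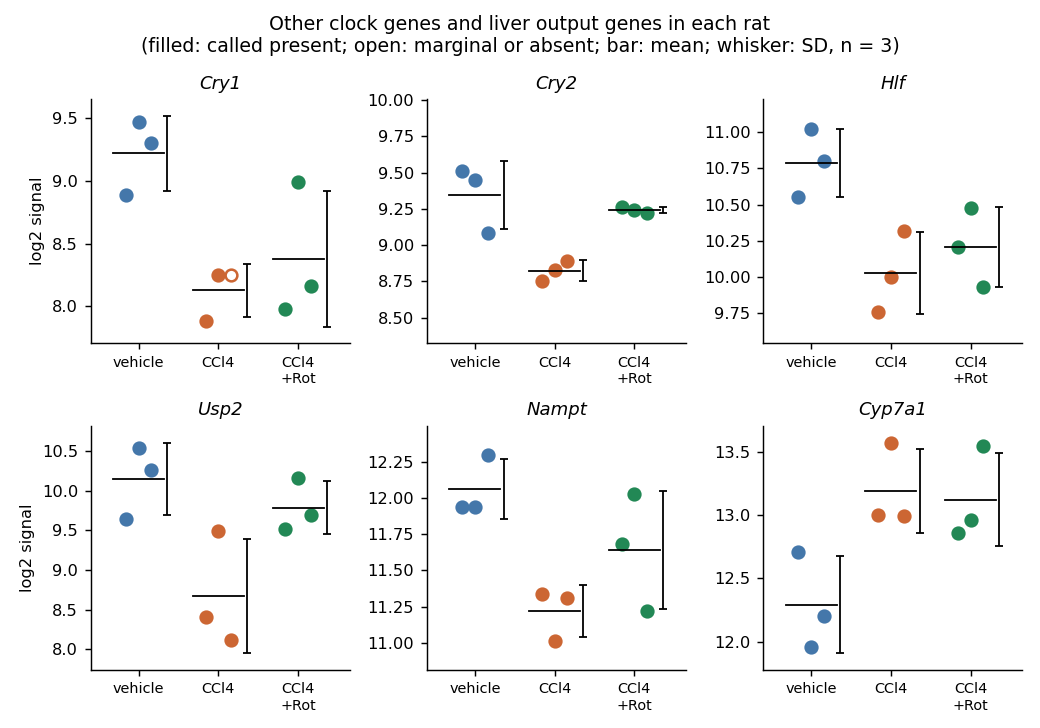
Log2 signal of Cry1, Cry2, Hlf, Usp2, Nampt and Cyp7a1 in each rat, with a point per rat (filled where called present), a bar at the group mean and a whisker of 1 SD (n = 3). By the brightest probe set of each gene, Cry1, Cry2, Hlf, Usp2 and Nampt are lower in all CCl4 than in all vehicle livers. Cyp7a1 is higher, from 12.99 to 13.57 against 11.96 to 12.71.

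Por, the electron donor of microsomal cytochromes P450, and Gys2, the liver glycogen synthase, were the remaining outputs with an unadjusted p below 0.05 in CCl4 against vehicle, at -1.06 ± 0.399 and -0.79 ± 0.299 (adjusted p = 0.358 and 0.359), and at -0.59 and -0.55 without CCl4 replicate 3. CCl4+Rot lay 0.53 above CCl4 livers for Gys2 and 0.75 for Alas1, the first enzyme of heme synthesis (adjusted p = 0.765 and 0.752), or 0.30 and 0.53 without CCl4 replicate 3, and Por stayed 0.85 below vehicle in the CCl4+Rot group (-0.85 ± 0.399, adjusted p = 0.651). Elovl3 was absent on all arrays. Glucocorticoids reset the liver clock and were considered through 6 of 7 listed target genes that were measured. By limma 0 of them were called. Between CCl4 and vehicle 3 lay higher and 3 lower (median -0.02, or 0.05 without CCl4 replicate 3). Between CCl4+Rot and CCl4 livers 3 of 6 did not overlap, Tsc22d3 lying higher and Fkbp5 and Pdk4 lower, with log2 differences of 0.42 ± 0.259, -0.74 ± 0.407 and -0.98 ± 0.568 (adjusted p = 0.765 for each), where 4.73% of all probe sets were higher and 6.88% lower. They were 0.31, -0.72 and -1.30 without CCl4 replicate 3. Second probe sets of Fkbp5 and Pdk4 differed by -0.96 and -1.25. Sgk1 was the single one whose brightest probe set had an unadjusted p below 0.05, with a difference of 1.10 ± 0.349 for CCl4+Rot against vehicle (adjusted p = 0.425), where 8.31% of all probe sets did.

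Among 7054 other genes detected on every array, those whose log2 signal followed Dbp closely over the 9 arrays included Pnpt1, a mitochondrial RNA exonuclease (Pearson r = 0.973), Hsd17b2, an oxidative hydroxysteroid dehydrogenase (0.971), Suclg2, a succinate-CoA ligase subunit (0.967), and Twsg1, a binder of bone morphogenetic proteins (0.95). Those that ran most opposite to Dbp were Smim4 (-0.967), Ccdc92 (-0.955) and Nedd1 (-0.946). Arntl was followed most closely by Tmem209 (0.943), Nedd1 (0.933), Alg14 (0.927), Smim4 (0.926) and Cltb (0.925), and Tob1 (-0.953), Naa60 (-0.948) and Twsg1 (-0.945) ran most opposite. Smim4, Nedd1 and Twsg1 were thus named for both genes, with opposite signs. The 9 points share their group differences and include CCl4 replicate 3, and these values are a description of likeness over the arrays.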

How the data were processed

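For each probe set of the Affymetrix rat array, the deposited table gives a log2 signal and a call of present, marginal or absent on each of 9 arrays. The submitters' processing notes name MAS5 and affy, with versions not given in the sources used here. The antilogs had a 2% trimmed mean of 500 on every array, so the arrays had been scaled to a common mean, and the deposited log2 values were used as they were. The number of arrays limits the precision, and a read depth does not apply. All per-sample columns were mapped (0 were unused). Chromosomes of the table carry no genome build, so coordinates are those of the RefSeq windows alone.

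After 57 control probe sets were left out, 31042 were fitted with limma 3.58.1 (statmod 1.5.0, R 4.3.3) as 3 group means without covariates, and the Benjamini-Hochberg adjustment ran over all of them. The study's methods give the 1.5-fold threshold and do not name the test used for the arrays. With 3 against 3 rats an exact permutation test cannot go below p = 0.1. Nothing in the labels says more of the replicates than that they are separate livers. The fit was also run on simulated data, with changes added to the CCl4+Rot group and read against CCl4. Noise was normal and independent, with the same spread per probe set on all arrays. No simulated array stood apart as CCl4 replicate 3 did, so the effect of such an array was not tested.

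The members and gene lists were chosen with earlier results of these data known. Each gene was read by its brightest probe set among those naming it alone. From the lists of other clock genes and liver outputs the 3 genes with the smallest p in each comparison were named, and Por, Gys2, Nfil3, Tsc22d3, Fkbp5, Pdk4 and Sgk1 were named after their values were seen. Likeness was ranked by Pearson correlation, with the 5 highest and 3 lowest genes given for Dbp and for Arntl. A gene present in no array of either group, or absent in the brighter group, got no fold. Where only the dimmer group lacked detection the fold rests on undetected signals, with no dim signal taken below the faintest present one of its array. For Arntl and Per3 that limit changed nothing, so their folds are those of the mean signals and are no lower bounds. Ciart, Fbxl21, Upp2 and Zbtb16 were not analysed here, and some genes that these rules select are not reported. Alternatives were quantile normalization, median centring, filters on low or undetected probe sets, only the groups compared, a robust fit, the methods' t-test, array weights, the animal number as a block, other choices of probe set, and each array left out.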

Additional observations from a re-analysis of the deposited data

How the results depend on the processing

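For the 10 members in 3 comparisons, 610 of 627 alternative values kept their sign and their side of the threshold. Dbp in CCl4 against vehicle became a call in 2, the robust fit and the methods' t-test without adjustment. By brightest probe sets, 1 member instead of 0 was thus called there under each. Many of the alternative values could not change sign, because the filters, the robust fit, the t-tests and the groups compared alone leave the difference itself as it was. The same holds where the array left out lay outside the comparison. The share that kept its sign is therefore no measure of stability. The 15 that changed sign were small differences or means over undetected probe sets. With probe sets averaged per gene Clock became -0.15, 0.15 and -0.0034 in CCl4 against vehicle, CCl4+Rot against CCl4 and CCl4+Rot against vehicle, and Per2 became 0.09 in the last. With an array left out, Nr1d1 ranged from -0.26 to 0.12 in CCl4 against vehicle, from -0.18 to 0.19 in CCl4+Rot against CCl4 and from -0.21 to 0.12 in CCl4+Rot against vehicle, and in the last comparison Arntl ranged from -0.04 (without vehicle replicate 4) to 0.76 and Per1 from -0.15 (without vehicle replicate 3) to 0.34. Nr1d1 also became -0.05 in CCl4+Rot against CCl4 with array weights, and Per1 became -0.03 in CCl4+Rot against vehicle with median centring. The cause was not tested.

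Over all probe sets, calls in CCl4 against vehicle were 0, and became 4 with the filter on low signals, 78 with that on detection, 348 with the robust fit and 1774 by the methods' t-test without adjustment. In CCl4+Rot against CCl4 the call of 1 became 0 under quantile normalization, both filters, the groups compared alone and the adjusted t-test, 851 without adjustment, and 0 to 2 with an array left out. In CCl4+Rot against vehicle the 8 calls became 3 with quantile normalization, 2 with median centring, 22 and 63 with the filters, 1 with the groups compared alone, 241 with the robust fit, 73 with array weights, 2126 and 0 by the t-test without and with adjustment, and 0 to 24 with an array left out.

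Counts of members whose groups did not overlap were varied after seeing the data. In CCl4 against vehicle they were 8 to 9 with an array left out (18.3% to 35.8% of all probe sets) and 7 with median centring (17.4%). In CCl4+Rot against CCl4 they were 3 to 8 (11.6% to 27.2%) and 2 (11.1%), and in CCl4+Rot against vehicle 3 to 5 (21.1% to 33% of all probe sets) and 5 (22.8%). The number of members with their widest range in the CCl4 group went from 10 to 6 without CCl4 replicate 3. It was also computed after seeing the data, and without the same count over all probe sets. The same animal numbers recur between groups, but samples with the same number did not deviate together (correlations of -0.0896, -0.00466 and -0.0125). With the replicate block the counts of calls were 0, 1 and 8, and the only member to change sign was Nr1d1 in CCl4+Rot against CCl4, to -0.0026.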
